A study of Mus musculus with 8 samples.

Results

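The neural crest genes *Tfap2a*, *Tfap2b*, *Tfap2c*, *Twist1*, *Ets1*, *Foxd3*, *Snai1*, *Snai2*, *Ednrb* and *Dlx5* were examined in Day 4 neural progenitor cultures with and without *Sox3*. They were taken by symbol from the array annotation, and all 10 were found, each with 1 transcript cluster, among the 23410 transcript clusters that carry a gene symbol. A transcript cluster is the set of probes along a gene whose signals are combined into a single value, given here as a log2 signal. The *Sox3* null cultures came from an R1 mouse ES cell line whose only *Sox3* exon was replaced with GFP. The control cultures, labelled Conditional and *Sox3* positive, came from R1 cells with a conditional *Sox3* allele, and the methods also call them wild type. Both lines were differentiated for 4 days as monolayers in N2B27, a defined medium without serum that lets ES cells become neural. Each genotype gave 4 arrays, of which replicates 1 and 2 belong to differentiation batch 1 and replicates 3 and 4 to batch 2. The genotypes are separate ES cell lines, so an effect of *Sox3* loss and one of the line cannot be told apart, and whether either line is 1 clone is not stated in the sources used here.

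The neural crest is a population of cells that arises at the border of the neural plate and the surface ectoderm, leaves the dorsal neural tube by an epithelial to mesenchymal transition and gives rise to peripheral neurons and glia, pigment cells and much of the facial skeleton. AP-2 factors, encoded by the *Tfap2* genes, act early at the neural plate border, and *Foxd3*, *Ets1*, *Snai1*, *Snai2* and *Twist1* encode factors of crest specification and of cell migration. *Ednrb*, a G protein-coupled receptor for endothelins, is needed by the crest cells that form pigment cells and the enteric nervous system. Most of these genes are also used in other cells, for example *Ets1* in endothelium, *Ednrb* in glia, *Twist1* in mesenchyme and *Tfap2c* in germ cells and trophoblast.

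*Sox3* itself was read first as a check of the labels. It had a log2 fold change of -1.31 (null over control, with a standard error of 0.08 and adjusted p = 3.87e-05 from limma), and its null and control arrays did not overlap. Neural progenitor markers were bright in both genotypes. The mean log2 signal over *Sox1*, *Sox2*, *Pax6*, *Nes*, *Msi1* and *Hes5* ran from 11.50 to 11.64 on the null arrays. On the control arrays it ran from 11.23 to 11.45, so every null array was the higher. All 6 genes had a log2 fold change above 0 (50% of all transcript clusters did), with a median of 0.13. In limma 3 of the 6 had an unadjusted p under 0.05, against 13.1% of all. Of these 6 genes *Nes* passed the test in limma (log2 fold change 0.49) and none in a plain linear model with each gene's own variance. As a yardstick for low signal, the 1035 transcript clusters of olfactory receptors, a gene family used in the nose, had a median log2 signal of 4.79 and a 95th percentile of 6.16. Of the 10 neural crest genes, 9 lay above that percentile in their mean over all arrays and *Dlx5* did not. *Sox3* also lay above it on the null arrays, at 8.39, 8.56, 8.67 and 8.37 in replicates 1 to 4, although its only exon was replaced there. Probes differ in how strongly they respond, so a signal above the yardstick is not a test of whether a gene is expressed.

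Of the 10 neural crest genes, 4 rose in *Sox3* null cultures, namely *Tfap2b*, *Ednrb*, *Ets1* and *Twist1*. None fell, and the test was not passed by the other 6. A gene passed when its Benjamini-Hochberg adjusted p over all 23410 transcript clusters was 0.05 or less in limma, with genotype and batch as terms. Of all transcript clusters, 1.55% passed in either direction and 1.15% passed as higher. All 4 also reached a fold change of 1.4, as did 0.431% of all transcript clusters, although *Ets1* (1.403-fold) and *Twist1* (1.401-fold) lay close to that threshold. *Ednrb* is among the genes that the study selected from these same arrays, so its passing is not independent evidence. All 10 genes were chosen with earlier results of these data known, so their counts and median are not independent evidence either. Across the 10 genes the median log2 ratio was 0.23, against -0.00 over all transcript clusters tested, and 7 of the 10 lay above 0, as did 50% of all. In such bulk cultures, more cells of a type and more RNA per cell cannot be told apart.

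**Figure D1:**
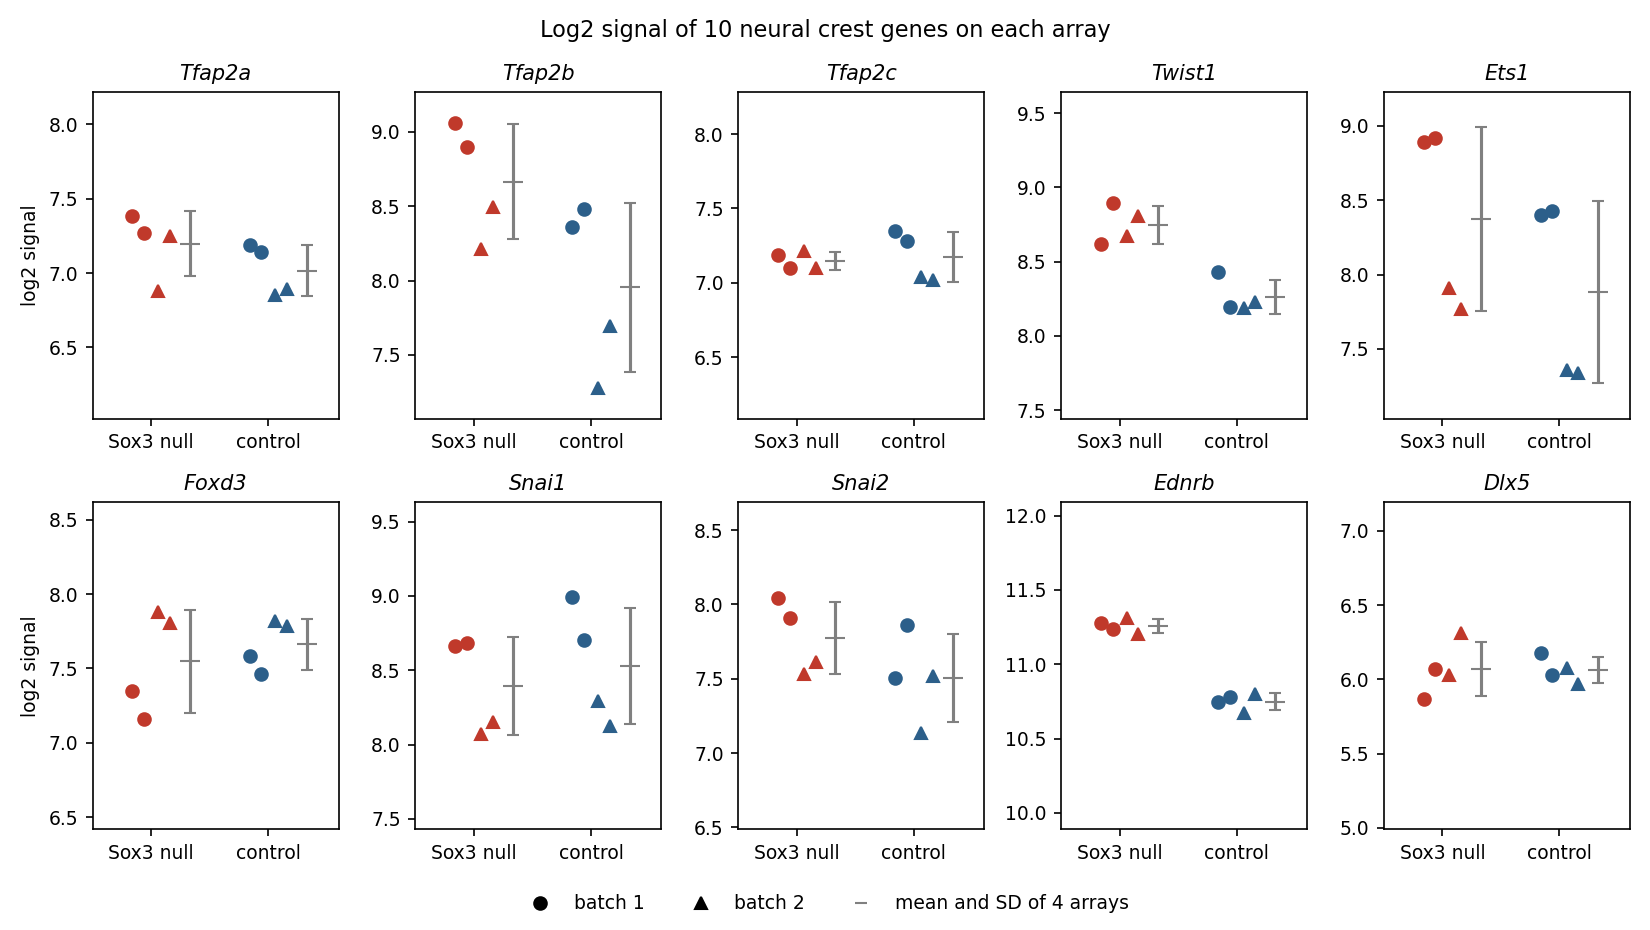
Log2 signal (vertical axis, each panel spanning the same range of log2 units) of the 10 neural crest genes on the 4 *Sox3* null and 4 control arrays. Batch 1 is drawn as circles and batch 2 as triangles, with group means and SDs (n = 4) in grey. *Ednrb* and *Twist1* have every null array above every control array, while *Tfap2b* and *Ets1* are separated within each batch only.

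Among the AP-2 genes, *Tfap2b* rose, and *Tfap2a* and *Tfap2c* did not pass. *Tfap2b* had log2 signals of 9.06, 8.90, 8.21 and 8.49 in *Sox3* null replicates 1 to 4, against 8.36, 8.48, 7.28 and 7.69 in control replicates 1 to 4. Within each batch the null pair was above the control pair, but null replicate 3 of batch 2 lay below the control arrays of batch 1, so the genotypes overlap when batches are pooled. *Tfap2b* rose 1.64-fold, a log2 fold change of 0.71 (standard error 0.11, 95% interval 0.48 to 0.94, adjusted p = 0.00765 from limma). The effect was 0.56 in batch 1 and 0.87 in batch 2, and the difference between batches of 0.31 had an unadjusted p of 0.151 in limma (adjusted p = 1). Counting *Tfap2b* itself, 7 of the 23410 were raised by as much or more. *Tfap2b* did not pass without the batch term (adjusted p = 0.638), with batch as a random block (0.188), over all rows of the table (0.0826) or in a plain linear model with its own variance (0.198).

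*Tfap2a*, an AP-2 gene of the neural crest and surface ectoderm, had 7.39, 7.27, 6.88 and 7.25 in null replicates 1 to 4, against 7.19, 7.14, 6.85 and 6.89 in control replicates 1 to 4. The null arrays were the higher ones in batch 1, and in batch 2 the lower null array lay between the controls. Over both batches the effect was 0.18 (standard error 0.07, 95% interval 0.02 to 0.34, adjusted p = 0.329). *Tfap2c*, an AP-2 gene of trophoblast and germ cells, had 7.18, 7.10, 7.21 and 7.10 in null replicates, against 7.35, 7.28, 7.04 and 7.02 in control replicates. Here both null arrays were below both controls in batch 1 and above both in batch 2, so that over both it was nearly level (-0.02, standard error 0.07, adjusted p = 0.929). The difference of 0.30 between the *Tfap2c* effects of the batches, batch 2 minus batch 1, had an unadjusted p of 0.0191 and an adjusted p of 1 in limma. A difference of genotype effect between batches passed for none of the 23410 transcript clusters, 0% of those tested, and 715 of them (3.05%) had an unadjusted p under 0.05 in limma, as did *Tfap2c* and *Foxd3* among the 10. The log2 fold change of *Tfap2b* exceeded that of *Tfap2a* by 0.53 (standard error 0.11) and that of *Tfap2c* by 0.74 (standard error 0.14). In a two-sided exact permutation test of genotype within batches both differences had p = 0.0556, which is the smallest p that the 36 arrangements allow. After adjustment over the 6 pairs of related genes compared it was 0.0833. No pair could reach 0.05 in this test, and the pairs were chosen after the values were seen, so it does not decide whether paralogues differ.

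Of the transcription factors of crest specification and migration, *Ets1* and *Twist1* rose. *Ets1*, an ETS factor of cranial crest, had 8.89, 8.92, 7.91 and 7.77 in null replicates 1 to 4, against 8.40, 8.43, 7.36 and 7.34 in control replicates 1 to 4. In each batch both null arrays exceeded both controls by a nearly constant step, while both genotypes were lower in batch 2. The effect was 0.49 (standard error 0.05, 95% interval 0.38 to 0.60, with an adjusted p of 9.06e-04 in limma), and either batch alone gave 0.49. *Ets1* did not pass without the batch term (adjusted p = 0.877) or with batch as a random block (0.488), and it passed in the plain linear model (0.0323).

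*Twist1*, a basic helix-loop-helix factor of cranial mesenchyme and migrating crest, had 8.62, 8.89, 8.68 and 8.80 in null replicates, against 8.43, 8.20, 8.19 and 8.23 in control replicates. No control array reached the lowest null array. The log2 fold change was 0.49 (standard error 0.08, 95% interval 0.32 to 0.65) and limma gave an adjusted p of 0.00929. Batch 1 alone gave 0.44 and batch 2 alone 0.53. *Twist1* did not pass without the batch term (adjusted p = 0.0659), over all rows of the table (0.0826) or in the plain linear model (0.177).

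*Snai1* and *Snai2* encode zinc finger repressors that lower E-cadherin during the epithelial to mesenchymal transition. *Snai2* had 8.04, 7.91, 7.54 and 7.61 in null replicates, against 7.50, 7.86, 7.14 and 7.52 in control replicates. Both null arrays were above both controls in each batch, by small margins, and the log2 fold change was 0.27 (standard error 0.09, 95% interval 0.06 to 0.48, adjusted p = 0.238). *Snai1* had 8.67, 8.69, 8.07 and 8.15 in null replicates, against 8.99, 8.71, 8.29 and 8.13 in control replicates. Its null arrays were the lower ones in batch 1 and overlapped the controls in batch 2 (effect -0.13, standard error 0.07, adjusted p = 0.452). The effect on *Snai2* exceeded that on *Snai1* by 0.41 (standard error 0.19), with a 95% interval of -0.09 to 0.90 that includes 0. The exact permutation p was 0.0556, again the smallest possible, and 0.0833 after adjustment.

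*Foxd3*, a forkhead factor of premigratory crest that is also used in pluripotent cells, had 7.35, 7.16, 7.88 and 7.80 in null replicates, against 7.58, 7.46, 7.82 and 7.79 in control replicates. The null arrays were below the controls in batch 1 and among or above them in batch 2, and the log2 fold change was -0.27 in the first and 0.04 in the second. Over both batches it was -0.12 (standard error 0.07, adjusted p = 0.568). *Dlx5*, a homeobox gene of the neural plate border and the branchial arches, had 5.87, 6.07, 6.03 and 6.32 in null replicates, against 6.18, 6.03, 6.08 and 5.97 in control replicates. The genotypes overlapped in both batches and the log2 fold change was 0.01 (standard error 0.09, 95% interval -0.19 to 0.20, adjusted p = 0.993). For each of the 6 genes that did not pass, the 95% interval from limma excludes a change of 1.4-fold in either direction. For *Snai2* it does so only narrowly, with an upper limit of 0.4799. The standard error of *Snai2* was 0.0944 in limma and 0.1222 in the plain linear model, so its exclusion rests on the limma fit.

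*Ednrb* had 11.28, 11.23, 11.31 and 11.20 in null replicates 1 to 4, against 10.74, 10.78, 10.67 and 10.80 in control replicates 1 to 4. Its SDs were the smallest of the 10 genes in either genotype, at 0.0479 in *Sox3* null and 0.0568 in control cultures (n = 4 each) around means of 11.3 and 10.7. *Ednrb* rose 1.42-fold, a log2 fold change of 0.51 (standard error 0.05, 95% interval 0.40 to 0.62, with an adjusted p of 9.22e-04 in limma). Batch 1 alone gave 0.50 and batch 2 alone 0.52. It passed in every fit that used both batches, including those without the batch term (adjusted p = 0.0124) and with each gene's own variance (0.0394). It did not pass in batch 1 alone (0.0653) or batch 2 alone (0.116), where 2 arrays stand against 2. All these fits reuse the arrays on which the study selected *Ednrb*, so they do not show whether the rise recurs in other samples. The paper states, without showing the data, that the *Ednrb* difference was not borne out by qRT-PCR in independent samples. Over all 8 arrays, 2 of the 10 genes, *Ednrb* and *Twist1*, had groups that did not overlap, compared with 4.6% of all transcript clusters. In 5 of the 10 both null arrays were above both controls in each batch, compared with 7.01% of all.

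**Figure D2:**
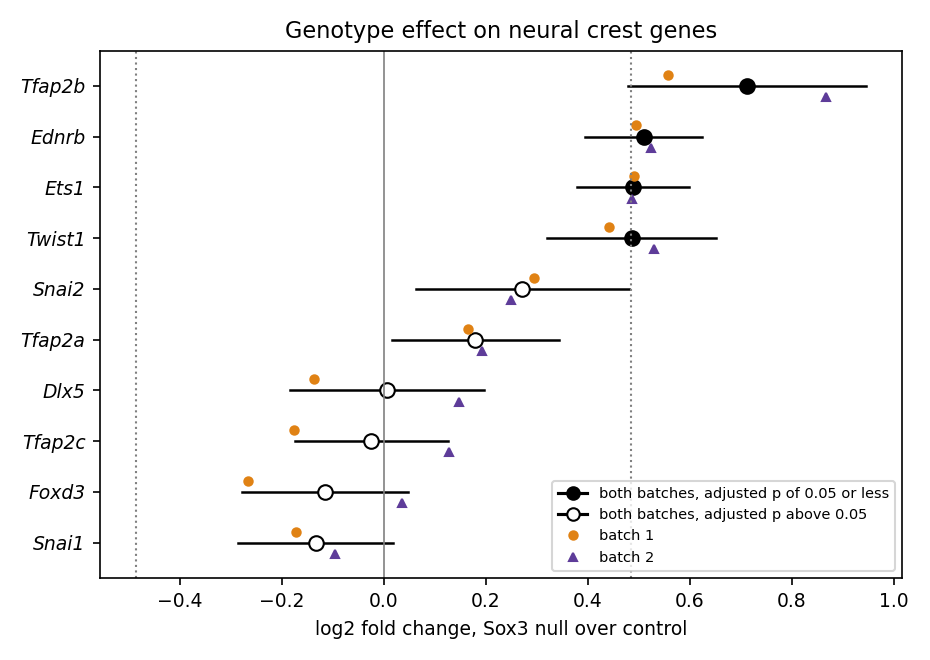
Genotype effect, as the log2 ratio of *Sox3* null to control (horizontal axis), for the 10 neural crest genes, with 95% intervals from limma as lines. Filled circles had an adjusted p of 0.05 or less, small circles and triangles give batch 1 and batch 2 alone, and dotted lines mark 1.4-fold. *Tfap2b* is at 0.71, *Ednrb*, *Ets1* and *Twist1* lie between 0.49 and 0.51, and the other 6 lie between -0.13 and 0.27.

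Promoters of *Tfap2b*, *Twist1* and *Ednrb* are shown because they can be read beside the changes in a *Sox3* null line. No promoter was available here for *Ets1*, which also rose, or for *Tfap2c*, *Snai2* and *Dlx5*, which did not pass. RefSeq promoters of build GRCm38.p6 were found for 6 of the 10 genes, and those of *Tfap2b*, *Twist1* and *Ednrb* are given as the 250 bases before the gene start, 5′ to 3′ on the strand of the gene. They were searched on both strands for ACAAT, the core of the sequence that SOX proteins bind (ATTGT on the other strand), and for GCCNNNGGC, a sequence bound by AP-2 factors that reads the same on both strands, and no match of one overlapped a match of the other. Capitals mark the matches.
*Tfap2b* (chr1:19211804-19212053, plus strand): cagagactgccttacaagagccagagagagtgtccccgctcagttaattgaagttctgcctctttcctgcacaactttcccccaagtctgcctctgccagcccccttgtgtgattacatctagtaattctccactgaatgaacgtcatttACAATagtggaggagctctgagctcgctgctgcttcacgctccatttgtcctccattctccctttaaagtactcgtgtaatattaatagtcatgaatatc
*Twist1* (chr12:33957421-33957670, plus strand): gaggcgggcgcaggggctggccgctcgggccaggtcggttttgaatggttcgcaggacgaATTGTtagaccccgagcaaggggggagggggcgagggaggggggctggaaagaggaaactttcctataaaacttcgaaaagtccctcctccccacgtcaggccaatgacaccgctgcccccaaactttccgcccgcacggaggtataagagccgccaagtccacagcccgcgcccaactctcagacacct
*Ednrb* (chr14:103843702-103843951, minus strand): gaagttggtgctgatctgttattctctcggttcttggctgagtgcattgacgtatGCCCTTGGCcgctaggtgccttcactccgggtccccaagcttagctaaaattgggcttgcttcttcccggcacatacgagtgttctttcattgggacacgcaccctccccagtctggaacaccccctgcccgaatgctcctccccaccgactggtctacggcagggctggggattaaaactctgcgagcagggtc
The *Tfap2b* promoter held ACAAT once, starting 100 bases before the gene start, and the *Twist1* promoter held its reverse complement once, starting 190 bases before. *Ednrb* held no ACAAT in this window and GCCNNNGGC once, starting 195 bases before. *Snai1*, which did not pass, also held GCCNNNGGC once, and neither sequence was in the windows of *Foxd3* or of either *Tfap2a* promoter. Of 32851 promoter windows of this length, 27.7% held ACAAT on either strand and 13.7% held GCCNNNGGC. A match is a run of letters and not a binding site, and no binding was measured on these arrays.

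The neural crest genes also differed between the differentiation batches. Between batch 2 and batch 1, 6 of the 10 genes passed, 5 lower and 1 higher in batch 2, against 20.2% of all transcript clusters in either direction. *Ets1* had a log2 difference of -1.07 (batch 2 minus batch 1, standard error 0.05), *Tfap2b* -0.78 (standard error 0.11) and *Snai1* -0.60 (standard error 0.07). *Snai2* had -0.38 (adjusted p = 0.0163) and *Tfap2a* -0.28 (adjusted p = 0.0217), and *Foxd3* was higher in batch 2 by 0.43 (adjusted p = 0.00219). For *Ets1* and *Tfap2b* the batch difference was larger than the genotype difference. *Ednrb* (-0.01, adjusted p = 0.892), *Twist1* (-0.06, 0.662), *Dlx5* (0.06, 0.698) and *Tfap2c* (-0.14, 0.205) did not pass for batch. The 4 genes that rose in *Sox3* null cultures thus divide into a pair that also shifted with batch and a pair for which no shift passed the test.

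**Figure D3:**
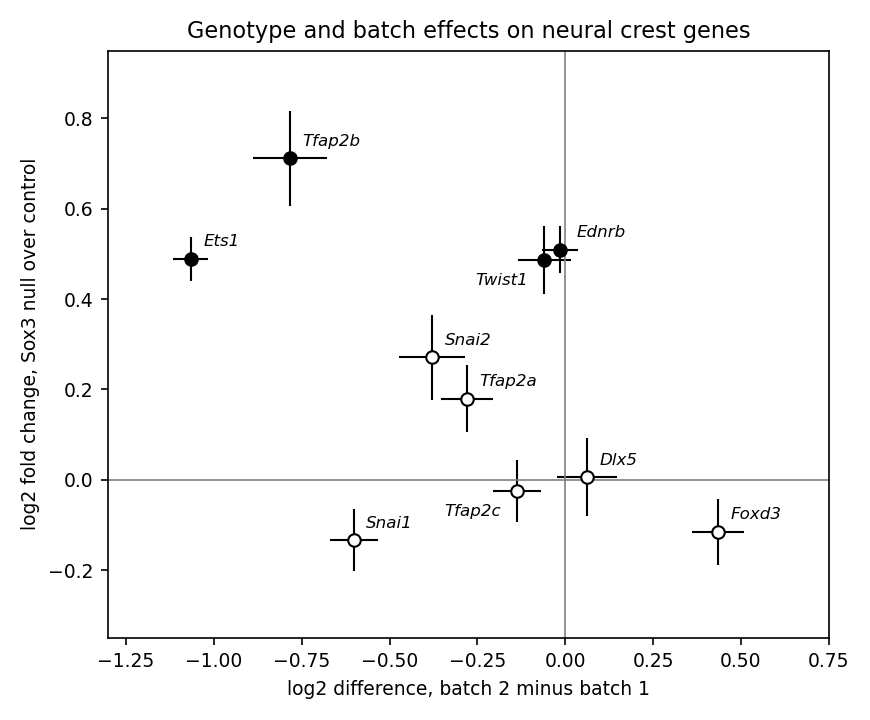
Genotype effect, as the log2 ratio of *Sox3* null to control (vertical axis), against the log2 difference of batch 2 minus batch 1 (horizontal axis) for the 10 neural crest genes. Lines are standard errors from limma and filled circles had an adjusted p of 0.05 or less for genotype. *Ets1* and *Tfap2b* lie far to the left at -1.07 and -0.78, and *Ednrb* and *Twist1* lie near 0.

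Paralogues of the 10 genes, and the genomic neighbours of *Tfap2b* and *Ednrb*, were read in the same fit. None of 14 measured paralogues (*Tfap2d*, *Tfap2e*, *Twist2*, *Snai3*, *Ets2*, *Fli1*, *Foxd1*, *Foxd2*, *Foxd4*, *Dlx1*, *Dlx2*, *Dlx3*, *Dlx4* and *Dlx6*) passed in limma or in the plain linear model, 3 had an unadjusted p under 0.05, as did 13.1% of all transcript clusters, and their median log2 fold change was -0.04. *Dlx3* had -0.20 (adjusted p = 0.148), *Fli1*, the ETS gene related to *Ets1*, had 0.23 (0.230) and *Twist2* had 0.12 (0.371). The effect on *Ets1* exceeded that on *Ets2* by 0.47 (exact permutation p = 0.0556, adjusted 0.0833) and that on *Fli1* by 0.26 (0.111, adjusted 0.111), and that on *Twist1* exceeded *Twist2* by 0.36 (0.111, adjusted 0.111). In the gene order of GRCm38.p6, the 5 measured genes on either side of *Tfap2b*, which include its paralogue *Tfap2d*, had log2 fold changes between -0.05 and 0.03, and none passed in limma or had an unadjusted p under 0.05. The 5 on either side of *Ednrb* had values between -0.06 and 0.16 with a median of 0.10, and none passed in limma, while 2 had an unadjusted p under 0.05, a share close to the 13.1% of all transcript clusters. None of 5 partners and inhibitors of AP-2 factors (*Kctd1*, *Kctd15*, *Cited1*, *Cited2* and *Cited4*) passed in limma or in the plain linear model, or had an unadjusted p under 0.05. The log2 ratio was 0.18 for *Cited1* (adjusted p = 0.422), 0.16 for *Cited4* (0.515) and -0.08 for *Cited2* (0.545).

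Around *Ednrb*, the endothelin ligand *Edn1* rose. *Edn1*, which encodes the precursor of endothelin 1, had 8.21, 8.30, 8.27 and 8.09 in null replicates, against 7.96, 7.94, 7.66 and 7.76 in control replicates. Every null array was above every control array, by 0.39 on average on the log2 scale (standard error 0.06) or 1.31-fold, with an adjusted p of 0.0107 in limma. In the plain linear model *Edn1* did not pass. *Edn3*, the ligand that acts with *Ednrb* in pigment and enteric crest cells, had -0.11 (adjusted p = 0.563), and *Edn2* had 0.00 (0.998). The converting enzyme genes *Ece1* and *Ece2* had 0.04 (0.863) and 0.06 (0.783). The receptor gene *Ednra* was not analysed here. Of the 7 measured genes of this list, 1 rose, none fell and the median log2 fold change was 0.04. Among all transcript clusters 1.15% passed as higher. An unadjusted p under 0.05 in limma was found for 1 of the 7, against 13.1% of all.

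Of 14 measured genes of the neural plate border and roof plate, 3 rose, none fell and 11 did not pass, with a median log2 fold change of 0.17. Among all transcript clusters 1.15% passed as higher. An unadjusted p under 0.05 in limma was found for 7 of the 14, against 13.1% of all. *Pax3* and *Pax7*, paired box factors of the dorsal neural tube and crest, had 0.29 (adjusted p = 0.0266 from limma) and 0.35 (0.00868), and the border gene *Zic1*, with zinc fingers, had 0.36 (0.013). *Id3*, an inhibitor of helix-loop-helix factors, had 0.39 (adjusted p = 0.074) and *Gbx2*, a homeobox gene of border and hindbrain, -0.23 (0.0719). With 1 array left out in turn, *Pax3* passed in 1 of 8 fits, the one without control replicate 2, and its adjusted p reached 0.113 in the others. *Zic1* missed the threshold without *Sox3* null replicate 1 (0.055) and without control replicate 1 (0.0537). In the plain linear model none of the 14 passed.

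Of 17 other measured neural crest genes, 3 rose, 1 fell and 13 did not pass, with a median log2 fold change of 0.03. Among all transcript clusters 1.15% passed as higher and 0.393% as lower. An unadjusted p under 0.05 in limma was found for 6 of the 17, against 13.1% of all. In the plain linear model *Nr2f1* passed (adjusted p = 0.0393) and the others did not. The 3 that rose are also used in neural progenitors. *Sox9*, a SoxE factor, had log2 signals of 10.99, 10.86, 10.40 and 10.62 in null replicates, against 10.54, 10.48, 9.89 and 9.91 in control replicates, and a log2 fold change of 0.51 (adjusted p = 0.00325). *Cdh6*, a cadherin of the dorsal neural tube, had 0.44 (0.00689) and *Nr2f1*, a nuclear receptor, 0.41 (0.00201). *Rxrg*, a retinoid receptor gene, fell by 0.48 on the log2 scale (adjusted p = 0.0379), but it passed only in the fits without *Sox3* null replicate 4 or without control replicate 4 of the 8 that left out 1 array, with an adjusted p of up to 0.132 in the others. Of genes of migrating crest and its derivatives that did not pass, *Sox10*, a factor of migrating crest and glia, had -0.08 (adjusted p = 0.675), the neuregulin receptor gene *Erbb3* -0.16 (0.424), the neurotrophin receptor gene *Ngfr* -0.00 (0.998), the GDNF receptor gene *Ret* 0.12 (0.364) and the pigment cell gene *Dct* 0.03 (0.878). None of 12 genes of the epithelial to mesenchymal transition passed in limma or in the plain linear model, and 7 had an unadjusted p under 0.05, against 13.1% of all transcript clusters. *Vim* had 0.18 (adjusted p = 0.096), *Cdh1*, the E-cadherin gene, -0.28 (0.192) and the claudin gene *Cldn3* -0.25 (0.162).

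**Figure D4:**
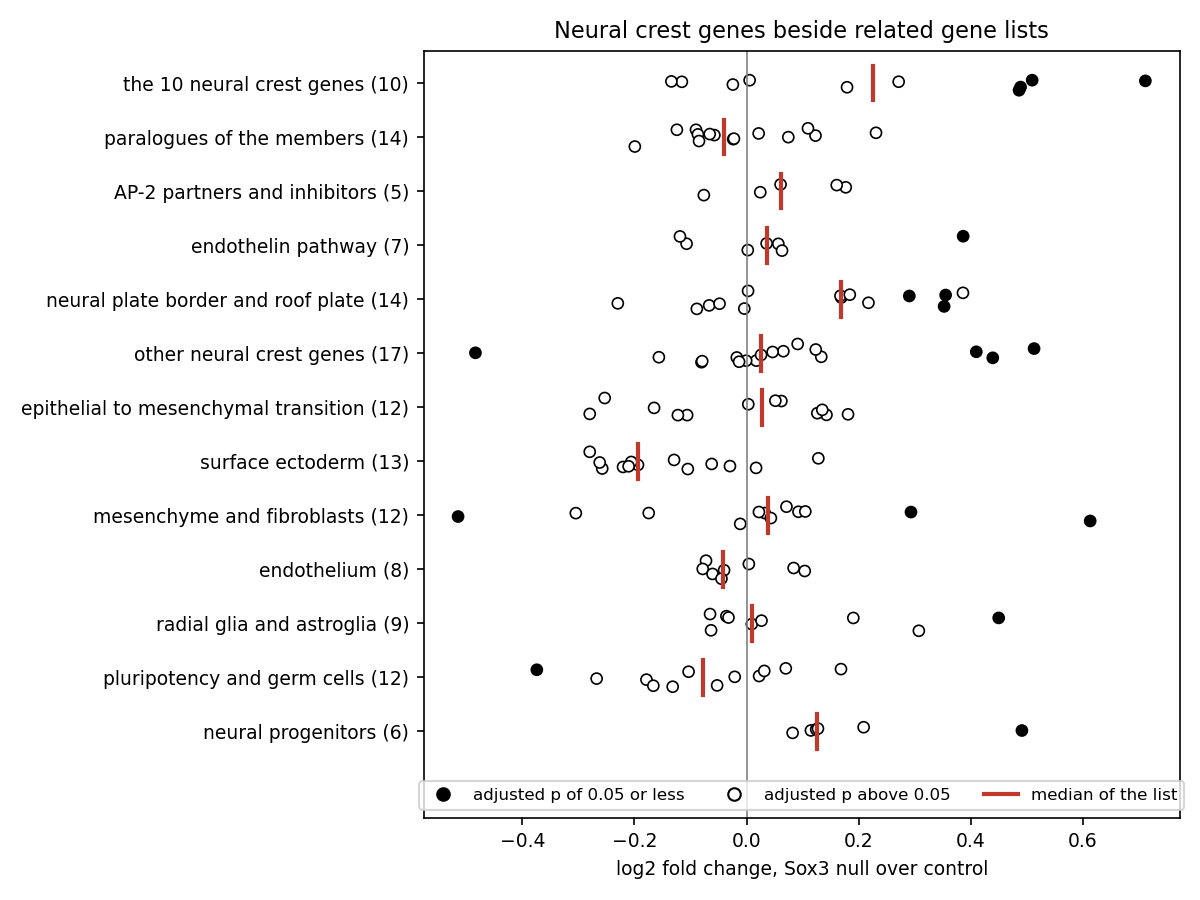
Genotype effect, as the log2 ratio of *Sox3* null to control (horizontal axis), for the measured genes of 13 lists, whose number of genes is in parentheses. Genes are circles, filled if they passed the test, and red bars are medians. The 10 neural crest genes have 4 filled circles to the right of 0 and a median of 0.23, and the surface ectoderm list has a median of -0.19.

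Markers of other cells that use the same genes were read on the same arrays. Before differentiation the ES cells were kept on irradiated mouse embryonic fibroblasts by the methods and on gelatine by the labels, so mesenchyme and fibroblast genes were included. Of these 12 genes 2 rose, 1 fell and 9 did not pass, while 1.55% of all transcript clusters passed in either direction. An unadjusted p under 0.05 in limma was found for 6 of the 12, against 13.1% of all. The mean log2 signal of the list ran from 6.85 to 7.07 on the null arrays and from 6.83 to 7.08 on the control arrays. *Acta2*, smooth muscle actin, had 0.61 (adjusted p = 0.00292 from limma), *Prrx1*, a homeobox gene of mesenchyme, 0.29 (0.0397) and *Thy1*, a surface protein of fibroblasts and neurons, -0.51 (0.00525), and in the plain linear model none of the 12 passed. With 1 array left out in turn, *Prrx1* passed in 1 of 8 fits, that without *Sox3* null replicate 2, with an adjusted p of up to 0.125 in the others. The collagen genes that define fibroblasts did not pass, with -0.17 for *Col1a1* (0.231), -0.30 for *Col1a2* (0.153) and 0.03 for *Col3a1* (0.870), and *Dcn*, *Lum*, *Postn* and *Fap* lay below the 95th percentile of the olfactory receptors. None of 8 endothelial genes passed in limma or in the plain linear model or had an unadjusted p under 0.05, and 4 of the 8 lay above that percentile. *Emcn* had 0.08 (adjusted p = 0.536), *Cdh5* -0.08 (0.566) and *Kdr* 0.10 (0.620). The mean of the list ran from 6.13 to 6.27 on the null and from 6.16 to 6.32 on the control arrays.

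None of 13 surface ectoderm genes passed in limma or in the plain linear model, 7 had an unadjusted p under 0.05 (13.1% of all transcript clusters did) and 11 lay below 0, with a median log2 ratio of -0.19. Batch 1 alone gave a median of -0.25 and batch 2 alone one of -0.05. *Grhl3*, an epidermal factor, had -0.22 (adjusted p = 0.117), *Epcam* -0.26 (adjusted p = 0.165) and *Krt8* -0.26 (0.238), and the mean of the list ran from 7.92 to 8.24 on the null and from 7.89 to 8.48 on the control arrays. Of 9 genes of radial glia and astroglia, *Tnc*, which encodes tenascin C, rose (log2 fold change 0.45, adjusted p = 0.0232 in limma) and 8 did not pass. Among all transcript clusters 1.55% passed in either direction. An unadjusted p under 0.05 in limma was found for 3 of the 9, against 13.1% of all. The mean ran from 8.23 to 8.30 on the null and from 8.14 to 8.23 on the control arrays. *Tnc* passed only without *Sox3* null replicate 2 or without control replicate 2 of the 8 fits that left out 1 array (adjusted p of up to 0.0954 in the others). Of 12 pluripotency and germ cell genes, *Nanog* fell by 0.37 on the log2 scale (adjusted p = 0.0464 in limma) and 11 did not pass. An unadjusted p under 0.05 in limma was found for 5 of the 12, against 13.1% of all. The mean ran from 8.83 to 8.91 on the null and from 8.83 to 9.05 on the control arrays. *Nanog* passed only in the fit without control replicate 4 of those that left out 1 array (up to 0.152 in the others). In the plain linear model neither *Tnc* nor *Nanog* passed. The part of other cell types in the changes of *Tfap2b*, *Ets1*, *Twist1* and *Ednrb* was not tested.

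The profiles most like those of *Tfap2b* and *Ednrb* were sought among the 21788 other transcript clusters with 1 symbol, by Pearson correlation over the 8 arrays after each batch mean was subtracted. For *Tfap2b* the 5 closest were *Tox3* (r = 0.99), *Npr2* (0.99), *Ccdc3* (0.99), *Gal3st4* (0.99) and *Dll1* (0.98), which encodes a Notch ligand. Their log2 fold changes lay between 0.30 for *Tox3* and 0.38 for *Ccdc3*, smaller than the 0.71 of *Tfap2b*. For *Ednrb* they were *Arpin* (0.99), *Raver2* (0.99), *Gpx3* (0.99), *Npl* (0.99) and *Dab2* (0.99), with log2 fold changes between 0.31 for *Raver2* and 0.59 for *Dab2*. These correlations are descriptions over arrays that share genotype and culture, and a step between genotypes alone brings a high value.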

How the data were processed

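Expression was measured on Mouse Gene 1.0 ST arrays of Affymetrix, 1 per culture, in 4 *Sox3* null and 4 control Day 4 cultures from 2 differentiation batches. The deposited values are log2 signals per transcript cluster, normalized and summarised by the authors. The submitters' processing notes name Partek. Its version, how probes were normalized and summarised, and the build behind the annotation were not given in the sources used here, and levels of different genes were not set against each other as amounts. The paper describes the 4 samples of a genotype as biological replicates from 2 separate experiments, and the labels call the samples independent. Neither says how the cultures of a batch were separated. The p-values therefore measure the spread between these samples, which may be partly technical. Of 35556 rows, 21789 had 1 symbol, 1621 several and 12146 were unnamed here. Gene order, chromosomes and promoters came from RefSeq tables of GRCm38.p6.

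The 23410 named rows entered a limma fit (version 3.58.1, R 4.3.3) of genotype plus batch, with Benjamini-Hochberg adjustment over all of them. The methods name a 2-way ANOVA with batch as a factor, which was run as a plain linear model in which each gene keeps its own variance. The median residual SD was 0.0869 on the log2 scale, and the number of arrays limits the precision. The fit was tested on simulated data. The genes and lists were chosen with earlier results of these data known, and no list was tested as a set. All 10 genes are named, with the genes of each list that passed or otherwise up to 3 with the smallest p. *Id3*, *Gbx2*, *Krt8*, the collagens, *Dcn*, *Lum*, *Postn*, *Fap*, the endothelin genes that did not pass, *Dct*, *Sox10*, *Erbb3*, *Ngfr* and *Ret* were added after their values were seen, as were the comparison of paralogues and the olfactory receptor yardstick. Where a symbol had several transcript clusters the brightest was used. *Ednra*, *Lmx1a* and some other genes of the lists were not analysed here.

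Same-numbered arrays of both genotypes share a batch, and they deviated together (correlations of 0.39 to 0.68 of their deviations from genotype means). Within batches the correlation was -0.32 in batch 1 and 0.30 in batch 2. The alternatives were other treatments of batch and replicate number, other rows, renormalization, other variance estimates, array weights, averaged transcript clusters, single batches and fits without 1 array.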

Additional observations from a re-analysis of the deposited data

Results flagged for a closer look

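In 98 groups of 4 arrays, those of either genotype for 49 named genes, an array at one end of its group was compared with the others by Dixon's ratio, its gap to the nearest array over the range of the group. Chance alone passes the 95% critical value in about 1 in 20 groups if the arrays of a group are alike. Here each group held 2 arrays of batch 1 and 2 of batch 2. In all, 3 groups passed, none of them for the 10 neural crest genes. For genes that shifted with batch, such as *Ets1* (control replicates 1 to 4 at 8.40, 8.43, 7.36 and 7.34), the range is mostly the batch difference. The ratio therefore does not decide whether an array stood apart within its batch for those genes. Control replicate 4 had a log2 signal of 10.47 for *Nanog*, against 10.70 to 10.74 on the other control arrays (ratio 0.837). Control replicate 4 was also apart for *Gpx3*, with 11.08 against 10.88 to 10.91 (ratio 0.844). Control replicate 2 had 5.17 for *Emcn*, an endothelial gene, against 5.29 to 5.32 on the other control arrays (ratio 0.836).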

How the results depend on the processing

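*Tfap2b*, *Ednrb*, *Ets1* and *Twist1* had log2 fold changes above 0 in all 21 alternatives, between 0.56 and 0.87 for *Tfap2b* and between 0.48 and 0.53 for *Ednrb*. They passed in 15, 19, 17 and 16 of them, and all 4 passed in each of the 8 fits that left out 1 array (adjusted p of up to 0.0339 for *Tfap2b* and 0.00641 for *Ednrb*). *Tfap2b* lost its call over all rows, in the plain linear model, with batch as a random block and with no batch term, with a log2 fold change of 0.71 in each, and in batch 1 (0.56) and batch 2 (0.87) alone. *Ednrb* lost it in batch 1 (0.50) and batch 2 (0.52) alone. The number of the 10 genes that passed was 4 in the fit of the report, 1 with no batch term, 2 each over all rows, in the plain linear model and with batch as a random block, and 0 in either batch alone, where 4 arrays remain. Over all transcript clusters 362 passed in the fit of the report, 37 with no batch term, 125 when batch was a random block, 18 and 23 in batches 1 and 2 alone, 93 over all rows, where more are adjusted for, 47 in the plain linear model, and between 182 (without control replicate 1) and 321 when 1 array was left out, with 204 without *Sox3* null replicate 1, 237 without control replicate 2 and 228 without control replicate 3. Over all rows the standard errors changed as well, from 0.1055 to 0.1198 for *Tfap2b* and from 0.0495 to 0.0469 for *Ets1*. Apart from what fewer samples or more tests imply, the cause was not tested. With the replicate block, 353 passed and the calls of all 10 genes stood, with an adjusted p of 0.00529 for *Tfap2b* and 0.00507 for *Ednrb*. The sign turned for 3 genes that had not passed. The log2 fold change of *Tfap2c* was 0.127 in batch 2 alone and between -0.0776 and 0.0231 when 1 array was left out (above 0 without *Sox3* null replicate 2 or control replicate 1). That of *Foxd3* was 0.0364 in batch 2 alone, and that of *Dlx5* was -0.137 in batch 1 alone, -0.0135 with array weights and between -0.0802 and 0.0737 when 1 array was left out (below 0 without *Sox3* null replicates 2 or 4 and without control replicates 3 or 4). *Tfap2a*, *Tfap2c*, *Foxd3*, *Snai2* and *Dlx5* lie below the median signal and had no value when dim transcript clusters were left out.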
